A study of Mus musculus with 15 samples.

Results

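*Flrt1* on mouse chromosome 19 lies, together with the small transcript gene *AC109619.1*, inside an intron of *Macrod1*. These 3 genes, of 30672 in the count table, were taken by their Ensembl identifiers. *Flrt1* and *AC109619.1* were selected on their fold change in WT + TAM against WT muscle, so that comparison is a description of both without a test, and *Macrod1* was added by position as the host gene. The question was whether *Macrod1* moved with *Flrt1* under tamoxifen.

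Poly-A RNA of the tibialis anterior muscle was sequenced in 15 male mice of strain 129Pas at 7 weeks. Untreated wild-type mice (WT, n = 4) and wild-type mice given tamoxifen (WT + TAM, n = 4) were set beside untreated mice lacking *Mtm1* (Mtm1-/y, n = 4) and such mice given tamoxifen (Mtm1-/y + TAM, n = 3). *Mtm1* is X-linked, encodes the phosphoinositide phosphatase myotubularin and is mutated in a congenital muscle disease. Tamoxifen is a ligand of oestrogen receptors that blocks or activates them depending on the tissue. Its dose, route and duration, and what untreated mice received, are not given in these sources.

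*Flrt1* encodes a single-pass membrane protein with leucine-rich repeats and a fibronectin type III domain. FLRT proteins bind latrophilin and UNC5 receptors on neighbouring cells in adhesion and axon guidance, and associate with FGF receptors. *Macrod1* encodes a macrodomain protein, found largely in mitochondria and abundant in striated muscle, that removes ADP-ribose from proteins. The annotation types *AC109619.1* as antisense RNA, for which no function was assumed.

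In GENCODE M21 on GRCm38, *Macrod1* (ENSMUSG00000036278) occupies chr19:7056810-7198057 on the plus strand with 11 exons. Its intron 3, at chr19:7066204-7185575, is 119.4 kb long and holds both of the other genes on the minus strand. *Flrt1* (ENSMUSG00000047787) occupies chr19:7092001-7105729 with 2 exons, the whole coding sequence lying in exon 2. *AC109619.1* (ENSMUSG00000117901) is a single exon of 953 bases at chr19:7087469-7088421, 3579 bases past the 3′ end of *Flrt1* on the same strand. Neither shares a base with a *Macrod1* exon. RefSeq on GRCm38.p6 draws *Flrt1* longer, at chr19:7087464-7166183, so that its start is 60.5 kb further upstream and its 3′ end falls 5 bases from that of *AC109619.1*. *AC109619.1* thus lies inside the RefSeq span of *Flrt1*, and also inside that of a non-coding RNA, *5730409K12Rik*. Reads of a long *Flrt1* transcript and of a separate *AC109619.1* transcript cannot be told apart in counts per gene. The libraries were prepared with a strand-specific kit, but whether counting used strand is not stated in these sources, so minus-strand reads and unspliced *Macrod1* reads cannot be told apart either.

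**Figure D1:**
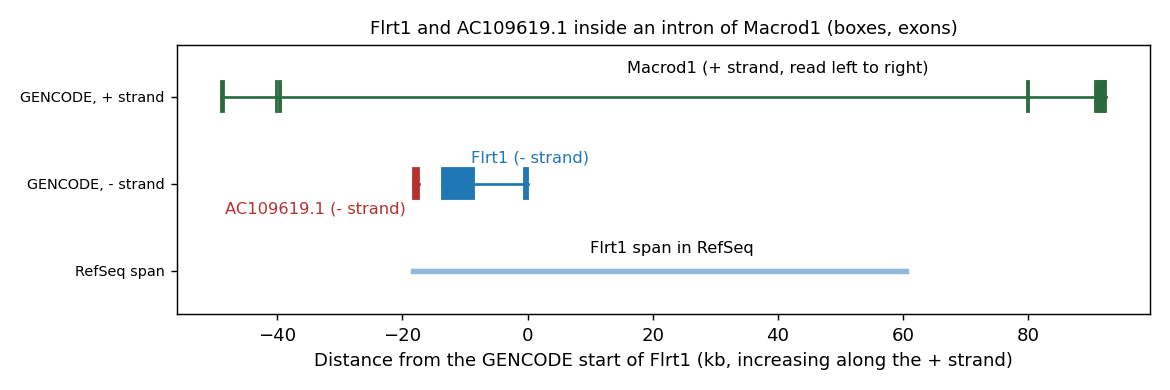
Position of the genes as distance in kb from the GENCODE start of *Flrt1*, with boxes for exons and lines for gene spans. *Flrt1* and *AC109619.1* sit between the third and the fourth exon of *Macrod1*, and the RefSeq span of *Flrt1* (lowest line) covers *AC109619.1* and reaches 60.5 kb further upstream.

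The last 30 bases of each GENCODE transcript on GRCm38 are shown because poly-A RNA was sequenced and because the annotations disagree on where *Flrt1* ends. Capitals mark the poly-A signal AATAAA.
Flrt1: ctttaaatttcctctttaaaaaaaaaaaaa
AC109619.1: cctttcttgaAATAAAtagaaagatttaaa
Macrod1: aagcctcctAATAAAgctgtctggctcagc
*AC109619.1* and *Macrod1* carry the signal, beginning 20 and 21 bases from the end. The annotated *Flrt1* end lacks it and closes in a run of 13 A, a run of at least that length being found at the end of 0.333% of 58797 protein-coding transcripts. In *Flrt1* the last AATAAA or ATTAAA begins 1375 bases from the end. AATAAA or ATTAAA was present in the last 30 bases of 44.1% of protein-coding transcripts, so its absence is common.

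Of the 3 genes only *Macrod1* had promoter windows in the RefSeq table used, namely 2. The one listed first, at chr19:7056518-7056817 on the plus strand of GRCm38.p6, is shown because oestrogen receptors bind DNA at known motifs. Capitals mark a match to GGGCGG on the opposite strand, the core of the GC box bound by Sp1.
Macrod1 promoter: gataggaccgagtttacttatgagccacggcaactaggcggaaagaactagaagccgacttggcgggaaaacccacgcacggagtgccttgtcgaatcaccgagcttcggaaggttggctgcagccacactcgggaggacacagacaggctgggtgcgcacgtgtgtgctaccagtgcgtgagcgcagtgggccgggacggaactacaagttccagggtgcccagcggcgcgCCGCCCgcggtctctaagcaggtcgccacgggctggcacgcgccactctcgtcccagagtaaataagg
Both strands were searched. GGGCGG matched 1 time here and occurs in 35.7% of 32851 promoter windows. The full oestrogen response element, which is GGTCA followed after 3 bases by TGACC and is found in 0.07% of windows, and its half-site GGTCA, found in 40.5%, had 0 matches. The half-site is contained in the full element, and a missing match says only that these letters are not in this window.

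Library totals were 18042558 to 45823277 counts. Levels are given as CPM (read counts scaled to library size) with TMM factors, and per kb of exon where genes are compared with each other. *Mtm1* was at 13.5 to 17.7 CPM in the 8 wild-type libraries and at 2.91 to 3.71 CPM in the 7 Mtm1-/y libraries. All 10 fast muscle markers were detected, with a summed level of 150000 to 253000 CPM. Of 8 neuron markers, 7 were at 0 counts in some of the 15 libraries, and the summed neuron level was 1.48 to 3.87 CPM. WT + TAM replicate 1 stood apart from the other WT + TAM libraries, with slow muscle markers summing to 1380 CPM against 68.3 to 123 CPM and fibroblast markers to 3090 CPM against 702 to 1250 CPM. Its Schwann cell markers were also higher (201 CPM against 72.3 to 132 CPM), and its endothelial (309 CPM against 479 to 542 CPM) and blood markers (80.8 CPM against 125 to 198 CPM) lower. Mtm1-/y replicate 1 stood apart as well, with fibroblast markers at 333 CPM against a group median of 981 CPM.

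*Flrt1* was close to silent in untreated muscle. WT replicates 1 to 4 held 26, 20, 13 and 44 *Flrt1* counts, or 0.64, 0.79, 0.58 and 1.29 CPM. Untreated Mtm1-/y replicates 1 to 4 held 10, 26, 25 and 80 counts, or 0.26, 1.05, 0.79 and 1.79 CPM. The 2 untreated groups overlapped throughout. Group means of *Flrt1* were 0.824 ± 0.324 CPM (SD, n = 4) in WT and 0.974 ± 0.636 CPM (SD, n = 4) in Mtm1-/y.

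With tamoxifen the WT + TAM replicates held 78, 2115, 5771 and 2915 *Flrt1* counts, or 3.19, 107.8, 139.2 and 111.2 CPM. All 4 were above every WT library, with 3 of them close together and replicate 1 far below. The mean was 90.3 ± 59.8 CPM (SD, n = 4), and the fitted difference from WT was 6.75 on the log2 scale, or 108-fold. Without replicate 1 it was 7.15. In this comparison 0.309% of 15533 tested genes were called by edgeR (adjusted *P* under 0.05), which is printed as background only, since *Flrt1* was chosen here. Ranked by level per kb, *Flrt1* was above 90.1% to 92.1% of tested genes in replicates 2 to 4, above 25.3% in replicate 1, and above 7.58% to 14.5% in the WT libraries.

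The Mtm1-/y + TAM replicates held 25, 139 and 941 *Flrt1* counts, or 1.33, 3.68 and 23.69 CPM. Replicate 3 was far above the others, while replicate 1 lay within the range of untreated Mtm1-/y muscle, so the groups overlapped; they did not for 3.33% of tested genes with Mtm1-/y + TAM higher. The fitted *Flrt1* difference from Mtm1-/y was 3.30 on the log2 scale (SE 1.12, 95% interval 0.88 to 5.72), or 9.87-fold, which did not pass the test over all genes (edgeR, adjusted *P* = 0.855, unadjusted *P* = 0.0115). By the same rule 0.0129% of genes, namely 2, were called. The value fell to 1.41 without replicate 3. Across replicates 1 to 3, endothelial markers summed to 252, 281 and 317 CPM and adipocyte markers to 150, 196 and 197 CPM, in the same order as *Flrt1*. Slow muscle markers summed to 120, 266 and 189 CPM and fibroblast markers to 777, 1640 and 920 CPM, highest in replicate 2, as were Schwann cell, macrophage, blood and satellite cell markers. Their part in the *Flrt1* values was not tested.

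From lowest to highest mean, the order of the groups for *Flrt1* was WT, Mtm1-/y, Mtm1-/y + TAM at 9.56 ± 12.3 CPM (SD, n = 3) and WT + TAM, and each group overlapped its neighbour in that order. Mtm1-/y against WT gave 0.25 (SE 1.27, 95% interval -2.51 to 3.01; edgeR, adjusted *P* = 0.905). That comparison shares the WT libraries with the one that chose the gene, so its test is not independent of the choice. The other *Flrt1* contrasts use the WT + TAM libraries, which also took part in the choice, and are given without a test. *Flrt1* in Mtm1-/y + TAM differed from WT + TAM by -3.20 on the log2 scale, and the tamoxifen difference in Mtm1-/y minus that in wild type was -3.45.

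*AC109619.1* followed *Flrt1* in order over the treated libraries, at a lower count. In untreated libraries, where both had few counts, their orders differed. It had 6, 4, 4 and 10 counts in WT, or 0.15, 0.16, 0.18 and 0.29 CPM. In WT + TAM it had 41, 561, 1625 and 902 counts, or 1.68, 28.6, 39.2 and 34.4 CPM. Every WT + TAM library was above every WT library, and replicate 1 was again the lowest. The fitted *AC109619.1* difference was 7.03 on the log2 scale, or 130-fold, again as a description.

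In Mtm1-/y muscle *AC109619.1* had 3, 20, 5 and 26 counts, or 0.08, 0.81, 0.16 and 0.58 CPM. In Mtm1-/y + TAM it had 15, 85 and 641 counts, or 0.80, 2.25 and 16.1 CPM. Replicate 1 of the treated mutants lay just below the highest untreated mutant and replicate 3 lay far above all of them. The difference was 4.05 on the log2 scale (SE 1.13, 95% interval 1.60 to 6.50; edgeR, adjusted *P* = 0.855, unadjusted *P* = 0.00352). It was 2.03 without replicate 3. *AC109619.1* in Mtm1-/y against WT gave 0.99 (SE 1.56; edgeR, adjusted *P* = 0.67), a test that shares the WT libraries with the comparison that chose the gene. Like *Flrt1*, *AC109619.1* was lower in Mtm1-/y + TAM than in WT + TAM, by -1.99 on the log2 scale, as a description.

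Over the 15 libraries the log2 CPM of *AC109619.1* and *Flrt1* had a Pearson r of 0.98, higher than that of any other tested gene with *Flrt1*. The points share libraries and groups, and r is a description. Per kb of exon, *AC109619.1* was above *Flrt1* in every library, by 1.63 to 1.91 times in WT + TAM replicates 2 to 4 and by 3.70 to 4.20 times in Mtm1-/y + TAM. As a share of the counts of both genes, *AC109619.1* made up 21%, 22% and 23.6% in WT + TAM replicates 2 to 4. It made up 37.5%, 37.9% and 40.5% in Mtm1-/y + TAM, where the exact 95% binomial interval of replicate 3 was 38.1% to 43.0%. WT + TAM replicate 1 had 34.5%, with an interval of 26.0% to 43.7%. In untreated libraries the share was 16.7% to 43.5% on 13 to 106 counts, too few to place it. The intervals cover counting error only, and as the share was looked at after the values were known it was given no test.

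**Figure D2:**
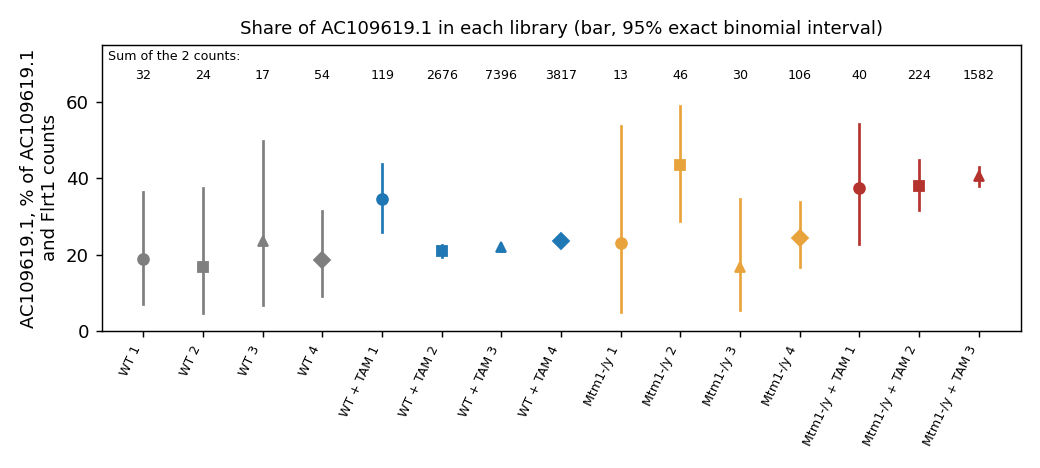
*AC109619.1* as a percentage of *AC109619.1* plus *Flrt1* counts in each library, with the exact 95% binomial interval as a bar and the summed counts above. WT + TAM replicates 2 to 4 sit between 21% and 23.6%, and the 3 Mtm1-/y + TAM libraries between 37.5% and 40.5%.

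*Macrod1*, by contrast, was abundant everywhere. Per kb of exon it was above at least 98% of tested genes in each library. WT replicates 1 to 4 had 112.0, 114.5, 128.2 and 113.1 CPM, and WT + TAM replicates 133.7, 135.8, 161.9 and 200.2 CPM. The groups did not overlap, as was so for 4.22% of tested genes with WT + TAM higher. WT + TAM replicate 1, lowest for *Flrt1*, was also lowest for *Macrod1*, but by a narrow margin. The *Macrod1* difference was 0.43 on the log2 scale, or 1.35-fold (SE 0.11, 95% interval 0.19 to 0.68). This missed the threshold over all genes (edgeR, adjusted *P* = 0.142, unadjusted *P* = 0.00164), where 1757 genes had an unadjusted *P* under 0.05. DESeq2 called it (0.44, adjusted *P* = 0.0264), as did edgeR when replicate 1 of WT + TAM and of Mtm1-/y were both left out (0.51, adjusted *P* = 0.0223). DESeq2 called 298 genes in this comparison against 48 by edgeR.

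In Mtm1-/y muscle *Macrod1* stood at 147.5, 163.7, 154.8 and 141.1 CPM, and with tamoxifen at 140.6, 145.0 and 139.5 CPM. Treated and untreated mutants overlapped. The difference of -0.10 on the log2 scale (SE 0.12, 95% interval -0.36 to 0.16; edgeR, adjusted *P* = 0.907) has an upper limit of 1.12-fold. Mtm1-/y + TAM replicate 3, in which *Flrt1* reached 23.69 CPM, had the lowest *Macrod1* level of the group. Averaged over genotypes, *Macrod1* gave 0.17 with tamoxifen (95% interval -0.01 to 0.35; edgeR, adjusted *P* = 0.788), in a comparison that called 0.206% of genes.

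The tamoxifen difference of *Macrod1* in Mtm1-/y minus that in WT was -0.53 on the log2 scale (SE 0.17, 95% interval -0.89 to -0.18), and did not pass over all genes (edgeR, adjusted *P* = 0.375). For this interaction edgeR called 0% of genes, with 1650 at an unadjusted *P* under 0.05; limma-voom called 0 and DESeq2 74. An unequal response of *Macrod1* between the genotypes was therefore not shown.

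Between untreated genotypes *Macrod1* rose in Mtm1-/y by 0.38 on the log2 scale, or 1.30-fold (SE 0.11, 95% interval 0.13 to 0.62; edgeR, adjusted *P* = 0.0211). All 4 Mtm1-/y libraries were above all 4 WT libraries. The background is high, since 30.4% of genes were called in this comparison, 15.5% as higher and 14.9% as lower, and 14.8% had non-overlapping groups with Mtm1-/y higher. Leaving out any of WT replicates 1, 2 and 4 or Mtm1-/y replicate 2 moved the adjusted *P* to 0.0536 to 0.0573. Endothelial markers summed to 442 to 567 CPM in WT and to 237 to 343 CPM in Mtm1-/y, and the part of cell make-up in the *Macrod1* difference was not tested. In bulk muscle, fewer cells of a type and less RNA per cell cannot be told apart. Between treated groups *Macrod1* differed by -0.16 (95% interval -0.42 to 0.11; edgeR, adjusted *P* = 0.404), where 20.1% of genes were called. Group means of *Macrod1* ran from 117 ± 7.55 CPM (SD, n = 4) in WT through 142 ± 2.91 (SD, n = 3) in Mtm1-/y + TAM and 152 ± 9.74 (SD, n = 4) in Mtm1-/y to 158 ± 31.0 (SD, n = 4) in WT + TAM, and only WT lay clear of the other groups.

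**Figure D3:**
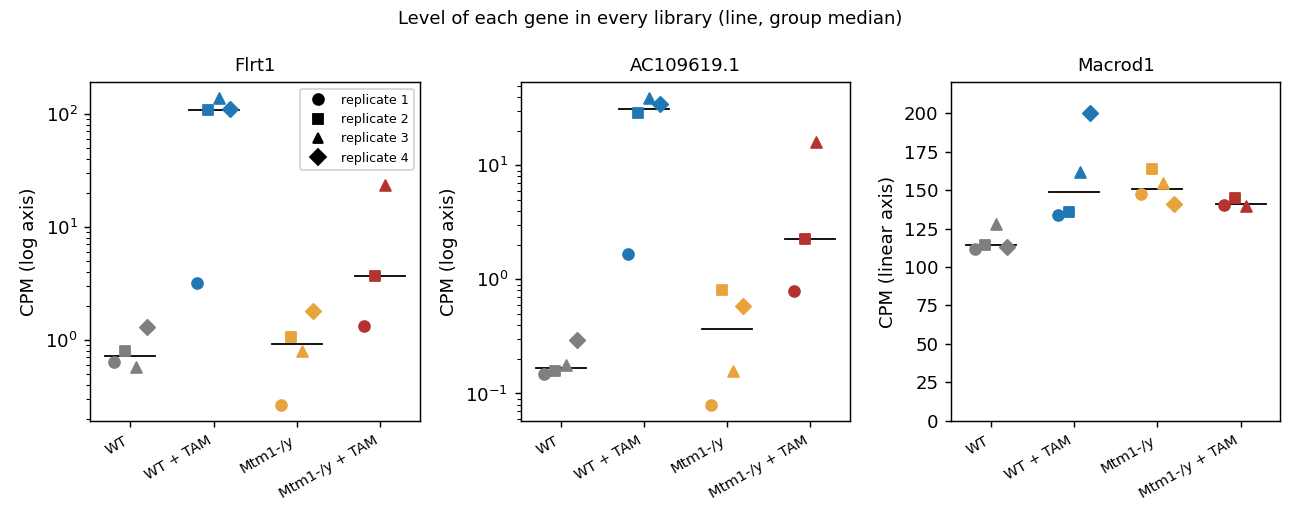
CPM of *Flrt1*, *AC109619.1* (log axes) and *Macrod1* (linear axis) in each library, with the group median as a line and the replicate number as the symbol. *Flrt1* and *AC109619.1* are high in WT + TAM replicates 2 to 4 and intermediate in Mtm1-/y + TAM replicate 3, whereas *Macrod1* stays between 112.0 and 200.2 CPM.

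**Figure D4:**
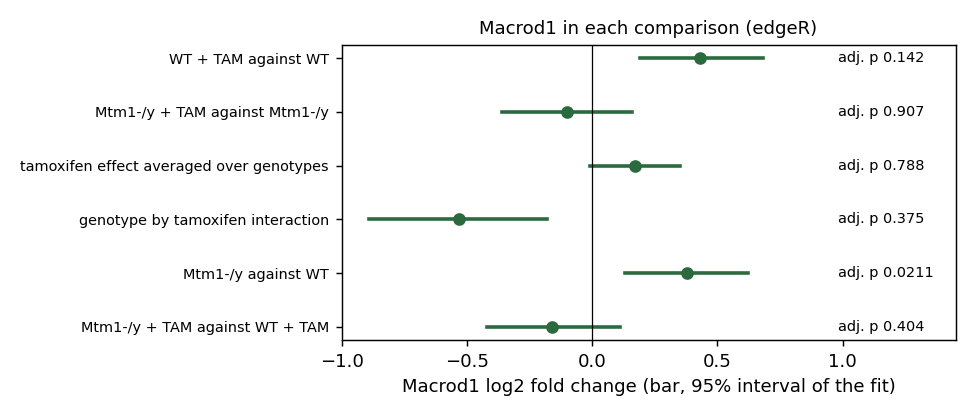
Log2 fold change of *Macrod1* in each comparison, with the 95% interval of the edgeR fit as a bar and the adjusted *P* value at the right. Mtm1-/y against WT, at 0.38, is the only comparison under 0.05, while the interval of WT + TAM against WT, at 0.43, lies above 0.

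The level of *Flrt1* relative to *Macrod1* varied widely between the treated libraries. Per kb of exon, *Flrt1* was at 0.166, 0.18 and 0.116 of the *Macrod1* level in WT + TAM replicates 2 to 4, at 0.0355 in Mtm1-/y + TAM replicate 3, and at most at 0.00531 in the other 11 libraries. Mtm1-/y + TAM replicate 1, at 0.00197, lay below untreated Mtm1-/y replicate 4, at 0.00266. In libraries that did not choose *Flrt1*, the log2 ratio of *Flrt1* to *Macrod1* CPM was -4.83 ± 2.09 (SD, n = 3) in Mtm1-/y + TAM and -7.44 ± 1.06 (SD, n = 4) in Mtm1-/y. The difference of 2.61 missed the threshold (exact permutation test, two-sided, *P* = 0.0857, 35 arrangements, smallest possible *P* = 0.0286). It was 1.47 without Mtm1-/y + TAM replicate 3.

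Whether *Macrod1* followed *Flrt1* from mouse to mouse could be asked only in untreated muscle. The 7 treated libraries fell into separate clusters by *Flrt1*, with a gap of 2.67 on the log2 scale, so no correlation was computed there. In the 8 untreated libraries Pearson's r was -0.05 (permutation over all 40320 pairings, two-sided, *P* = 0.91) and Spearman's rho was 0.10 (permutation *P* = 0.84). Without the 2 libraries farthest from the median of *Flrt1*, r was 0.13 (n = 6, permutation *P* = 0.822). As the only relation computed, its adjusted and raw *P* are the same. The 8 libraries pooled both genotypes, between which *Macrod1* did not overlap, and pairings were permuted across them. These values therefore mix the genotype difference of *Macrod1* with the spread between mice of a genotype. No relation was detectable in the pooled libraries with this number of them, at *Flrt1* counts of 10 to 80.

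By likeness over all 15 libraries, *Macrod1* stood at place 626 among the 15533 tested genes for *Flrt1*, with a Pearson r of 0.49. It was thus more like *Flrt1* than most tested genes were. The 5 genes outside the locus most like *Flrt1* were *Ccdc125* (r = 0.93), *Agap1* (0.92), *Gm28040* (0.92), *Rhpn2* (0.89) and *Exoc2* (0.88). None of them is on chromosome 19. They varied over smaller ranges than *Flrt1*. *Rhpn2*, which encodes a rhophilin, went from 1.94 ± 0.215 CPM in WT to 10.1 ± 3.77 CPM in WT + TAM (SD, n = 4 each), and *Agap1*, which encodes an Arf GTPase-activating protein, from 26.0 ± 0.78 to 32.2 ± 3.09 CPM. *Exoc2*, an exocyst subunit, went from 20.8 ± 1.01 to 26.3 ± 3.61 CPM, and *Ccdc125* from 0.77 ± 0.29 to 2.95 ± 1.53 CPM. Means in Mtm1-/y and Mtm1-/y + TAM were 3.37 and 5.9 CPM for *Rhpn2*, and 25.5 and 28.8 CPM for *Agap1*. They were 21.6 and 24.9 CPM for *Exoc2*, and 0.494 and 1.41 CPM for *Ccdc125*. *Gm28040* had 0 counts in every WT library and a mean of 0.914 ± 0.694 CPM in WT + TAM. It had 2, 3 and 3 counts in Mtm1-/y + TAM. Only in WT + TAM, whose libraries chose *Flrt1*, did *Gm28040* exceed 3 counts.

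The genes most like *Macrod1* were others. They were *Nfkbia*, which encodes the NF-κB inhibitor IκBα (r = 0.93), *Borcs6*, a subunit of the lysosome-positioning BORC complex (0.88), *Rbm38*, an RNA-binding protein (0.88), *Cox5b*, a subunit of cytochrome c oxidase (0.86), and *D730003I15Rik* (0.85). *Nfkbia* went from 47.9 ± 4.59 CPM in WT to 63.0 ± 16.1 CPM in WT + TAM and 65.1 ± 7.67 CPM in Mtm1-/y (SD, n = 4 each). All r values here are descriptions over libraries that share groups, and neither set of 5 genes is in the other.

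A further pair of genes with higher values under tamoxifen is set beside *Flrt1*. They were chosen with earlier results of these data known, so their values are a description. *Cyfip2*, which encodes a part of the WAVE actin-regulating complex, was at 18.4, 28.2 and 18.6 CPM in Mtm1-/y + TAM replicates 1 to 3, against 1.23 to 2.78 CPM in Mtm1-/y. Its 3 treated mutants were thus near each other where *Flrt1* ranged from 1.33 to 23.69 CPM. In WT + TAM *Cyfip2* was at 1.84, 14.3, 7.21 and 6.29 CPM, with replicate 1 lowest as for *Flrt1*. *Pgr*, the progesterone receptor gene and a classical oestrogen receptor target, had 5, 17, 7 and 7 counts in WT + TAM and 0, 7 and 5 in Mtm1-/y + TAM, against 2 counts in all 8 untreated libraries together. *Pgr* had too few counts to be among the tested genes.

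No gene around the locus was called with tamoxifen in the fit to all libraries. Of 23 other genes within 250 kb of *Flrt1*, 21 passed the filter on low counts and 0 were called in WT + TAM against WT (edgeR, lowest adjusted *P* = 0.252), beside 0.309% of all genes. Their log2 fold changes ran from -0.34 to 0.44 with a median of 0.06, where the median of all tested genes was 0. In Mtm1-/y + TAM against Mtm1-/y 0 were called as well (lowest adjusted *P* = 0.855), with a range of -0.43 to 0.58 and a median of -0.05. The highest wild-type values were 0.44 for the kinase gene *Mark2* and 0.39 for the deubiquitinase gene *Otub1*, close to the 0.43 of *Macrod1*. Without WT + TAM replicate 1 both were called, *Mark2* at 0.60 (adjusted *P* = 0.00656) and *Otub1* at 0.55 (adjusted *P* = 0.0139), while *Macrod1* was at 0.51 (adjusted *P* = 0.0548). These 2 neighbours were named after their values were seen. Between untreated genotypes 4 of 21 rose and 0 fell, or 19% beside 30.4% of all genes. They were *Ppp1r14b*, an inhibitor of protein phosphatase 1 (1.08), *Cox8a*, a subunit of cytochrome c oxidase (0.89), *Nudt22*, a Nudix hydrolase (0.41), and the FK506-binding protein gene *Fkbp2* (0.38, the same as *Macrod1*). Without WT replicate 4, *Ppp1r14b* and *Cox8a* kept the call and the others lost it.

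**Figure D5:**
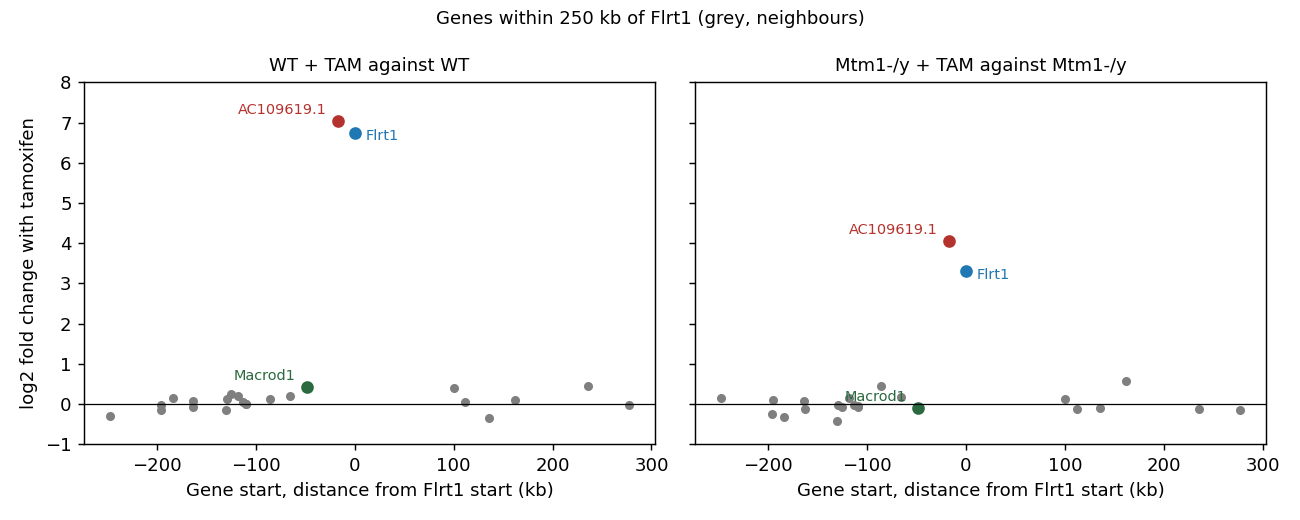
Log2 fold change with tamoxifen in wild-type (left) and Mtm1-/y muscle (right) of the tested genes within 250 kb of *Flrt1*, by distance between gene starts in kb. *Flrt1* and *AC109619.1* lie at 6.75 and 7.03 on the left and at 3.30 and 4.05 on the right, with *Macrod1* and the neighbours between -0.43 and 0.58.

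A list was made of family members and direct or indirect partners of FLRT proteins (*Flrt2*, *Flrt3*, latrophilin, UNC5, teneurin, FGF receptor and ROBO genes). Of its 18 genes, 15 passed the filter and 0 were called with tamoxifen in either genotype (edgeR, lowest adjusted *P* = 0.156 in wild type and 0.855 in Mtm1-/y). With 0.309% and 0.0129% of all genes called in these comparisons, a count of 0 in a list of this size, or in the lists that follow, says nothing particular about the list. Their log2 fold changes ran from -0.42 to 3.42 in wild type with a median of 0.18, and from -1.02 to 1.15 in Mtm1-/y with a median of 0.03. The highest was *Fgfr2*, named after its values were seen, which reached 9.36 CPM in 1 WT + TAM library against a group median of 0.306 CPM (adjusted *P* = 0.297). The UNC5 receptor gene *Unc5a* averaged 3.8 ± 0.793 CPM in WT (SD, n = 4), and in WT + TAM it averaged 6.47 ± 1.92 CPM (SD, n = 4), a difference of 0.76 (adjusted *P* = 0.156) that was called by DESeq2 (0.77, adjusted *P* = 0.0352) and by edgeR without WT + TAM replicate 1 (0.95, adjusted *P* = 0.0105). In Mtm1-/y *Unc5a* differed by 0.02 with tamoxifen. *Unc5a* was named after its values were seen.

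Loss of *Mtm1* moved more of these partners, with 2 of 15 higher and 7 lower in Mtm1-/y, or 60.0% beside 30.4% of all genes, and a median of -0.68. *Fgfr4*, an FGF receptor of muscle precursor cells, fell by 2.77 and the teneurin gene *Tenm4* by 2.73 on the log2 scale (edgeR, adjusted *P* = 7.02e-06 for each). The latrophilin genes *Adgrl2* and *Adgrl1* fell by 1.38 (adjusted *P* = 5.64e-05) and 0.74 (adjusted *P* = 0.000135). The endothelial marker sums given above were lower in Mtm1-/y as well, and their part in the values of these partners was not tested.

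Of 24 genes that add, remove or bind ADP-ribose, as *Macrod1* does, all passed the filter and 0 were called with tamoxifen, beside 0.309% and 0.0129% of all genes (edgeR, lowest adjusted *P* = 0.3 in wild type and 0.855 in Mtm1-/y). The medians were -0.02 and 0.06, and the wild-type values ran from -0.43 to 0.35, beside 0.43 for *Macrod1*. In Mtm1-/y against WT 4 rose and 8 fell, beside the same 30.4% of all genes, with a median of -0.11. The ADP-ribosyltransferase genes *Parp6* and *Parp14* fell by 0.51 (adjusted *P* = 7.48e-05) and 0.91 (adjusted *P* = 0.000243), while *Parp3* rose by 0.52 (adjusted *P* = 0.00075) and *Adprhl2*, a hydrolase that removes ADP-ribose from serine, by 0.87 (adjusted *P* = 0.000788). The closest relative, *Macrod2*, fell by 0.57 (adjusted *P* = 0.0125) where *Macrod1* rose.

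Of 10 oestrogen receptor, related receptor and partner genes, 8 passed the filter and 0 were called with tamoxifen, beside the same shares of all genes (edgeR, lowest adjusted *P* = 0.227 in wild type and 0.855 in Mtm1-/y), with medians of 0.16 and -0.12. The oestrogen target *Greb1* gave 0.34 with tamoxifen in wild type (edgeR, adjusted *P* = 0.636) and 0.88 in Mtm1-/y (SE 0.27; edgeR, adjusted *P* = 0.855, unadjusted *P* = 0.00471). In Mtm1-/y against WT 4 of 8 fell and 0 rose, beside 14.9% of all genes called as lower. Among them, the oestrogen receptor gene *Esr1* fell by 0.70 (adjusted *P* = 0.00176), the related receptor gene *Esrrb* by 0.93 (adjusted *P* = 0.00178) and *Greb1* by 1.01 (adjusted *P* = 0.00716). Their part in the values of *Flrt1* in Mtm1-/y + TAM was not tested.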

How the data were processed

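Libraries were prepared from tibialis anterior RNA with a strand-specific poly-A kit. The authors deposited raw read counts per Ensembl gene for 15 samples, naming STAR 2.5.3a, HTSeq 0.6.1p1, cutadapt 1.10 and Bowtie2 2.2.8 with GRCm38 in the processing notes. No annotation release, read filter or strand setting is stated in these sources. All 30672 identifiers matched GENCODE M21, which gave symbols, coordinates and exon lengths; promoter windows came from RefSeq (GRCm38.p6).

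Groups were taken from the labels. Counts were filtered with filterByExpr (minimum count 10, leaving 15533 genes), scaled by TMM and fitted with edgeR 4.0.16 in R 4.3.3 (robust quasi-likelihood, 4 group means, 11 residual degrees of freedom). Genes with a Benjamini-Hochberg adjusted *P* under 0.05 over all tested genes were called. For log2 CPM the prior count was 2. The pipeline was tested on simulated data. DESeq2 1.42.0, limma-voom 3.58.1, other scalings and filters, a replicate block and each library left out were alternatives. Nothing says whether replicates were processed together, and *P* values measure the spread between these mice.

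The members, the gene lists and the tests were chosen with earlier results of these data known. Named genes were the 3 members, list genes called with tamoxifen, up to 4 called list genes with the smallest adjusted *P* between genotypes, the 5 genes most like *Flrt1* and *Macrod1* each, and *Mtm1*, *Cyfip2* and *Pgr*. *Macrod2*, *Mark2*, *Otub1*, *Fgfr2* and *Unc5a* were added after their values were seen. Some results are not reported here.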

Additional observations from a re-analysis of the deposited data

Results flagged for a closer look

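In 4 of 15 groups of values examined, a library lay farther from the rest of its group than Dixon's 95% limit allows, which chance does in about 1 in 20 groups. The 3 Mtm1-/y + TAM libraries were too few to examine. WT + TAM replicate 1 was the low library for *Flrt1* (log2 CPM 1.70), for *AC109619.1* (0.80) and for *Flrt1* minus *Macrod1* (-5.36). *Flrt1* and *Flrt1* minus *Macrod1* rest on the same *Flrt1* counts, while *AC109619.1* has its own counts in the same library. The remaining flagged value was *Macrod1* in WT replicate 3, the highest of its group at a log2 CPM of 7.00. WT + TAM replicate 1 also stood apart in the slow muscle, fibroblast, Schwann cell, endothelial and blood marker levels given above, and their part in its low *Flrt1* was not tested.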

How the results depend on the processing

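All alternatives kept the direction of *Flrt1* and *AC109619.1* with tamoxifen, with 6.46 to 7.15 and 6.75 to 7.42 in wild type and 1.41 to 3.88 and 2.03 to 4.54 in Mtm1-/y over the fits without 1 library each. Limma-voom gave the lowest wild-type values, 5.88 and 6.35. For Mtm1-/y + TAM against Mtm1-/y the lowest adjusted *P* over all alternatives came from DESeq2, 0.387 for *Flrt1* and 0.162 for *AC109619.1*. *Flrt1* in Mtm1-/y against WT, 0.25 in the report, turned negative with the replicate block (-0.03) and without Mtm1-/y replicate 4 (-0.33), in a range of -0.33 to 0.58. *Macrod1* in WT + TAM against WT passed with DESeq2 (0.44) and with replicate 1 of both WT + TAM and Mtm1-/y left out (0.51), an alternative chosen after seeing the data. With 1 library left out it ran from 0.30 to 0.51 (adjusted *P* 0.0548 to 0.301). *Macrod1* in Mtm1-/y against WT kept its direction at 0.34 to 0.42 and lost its call in 4 of 15 such fits. The untreated correlation ran from -0.20 to 0.24 and changed sign without WT replicate 4 (0.12) or Mtm1-/y replicate 1 (0.24). With tamoxifen in wild type, 1 FLRT partner was called by DESeq2, and 0 to 1 partners and 0 to 2 neighbours without 1 library each; with both of the libraries just named left out these counts were 1 and 2. Called neighbours in Mtm1-/y against WT numbered 2 to 6. The causes of these moves were not tested.

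Over all genes, DESeq2 called 298 in WT + TAM against WT where edgeR called 48, 4 against 2 in Mtm1-/y + TAM against Mtm1-/y, and 119 against 32 for the average. Without WT + TAM replicate 1 the first count was 111, without Mtm1-/y replicate 1 it was 143, and without both 347, while leaving out any other library gave 11 to 50. For the interaction, where edgeR called 0, it called 2 with no filter on low counts, 7 without WT + TAM replicate 1, 3 without Mtm1-/y replicate 4 and 14 with replicate 1 of WT + TAM and of Mtm1-/y both left out. No label ties same-numbered libraries to a shared batch, and their deviations correlated at -0.113 to 0.306 over 21 pairs, not above 0.1 in every pair, so the block was not used in the report. The replicate block left *Macrod1* at 0.43 (adjusted *P* = 0.194) in WT + TAM against WT and at 0.38 (adjusted *P* = 0.0285) in Mtm1-/y against WT, and changed the wild-type count to 33. The alternatives for the correlation in treated libraries gave no value. Low counts limit *Flrt1* and *AC109619.1* in untreated muscle.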
